A study of Sus scrofa with 20 samples.

Results

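Genes of the sodium, chloride, bicarbonate and phosphate carriers, the beta subunits of the sodium pump and the aquaporins were followed in the ileum mucosa of pigs that differed in residual feed intake (RFI), the part of feed intake that growth and maintenance do not account for. A gene was taken as a member if its symbol in the platform annotation was SLC4A, SLC8A, SLC9A, SLC12A, SLC20A, SLC26A or SLC34A with a number, or began with ATP1A, ATP1B or AQP. The rule found 41 genes with values, on 70 of the 25092 probesets with values, which carry 10638 symbols in all. Each gene was represented by its probeset with the highest mean, and 35 of the 41 passed the filter on mean and SD. The scaffold genes SLC9A3R1 and SLC9A3R2 are not members.

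The arrays came from 20 Large White x Landrace pigs in the 20th week of life, all on a concentrated diet fed ad libitum and none given an agent. There were 10 pigs of low RFI, which the labels call high feed efficiency, and 10 pigs of high RFI, the low feed efficiency of the labels. In each of 5 litters, 1 pig of either RFI group was taken per sex, so that the study holds 10 litter-by-sex pairs. A litter was also a pen, so litter and pen cannot be told apart, and the mucosa was scraped near the ileo-cecal junction, so its cells are mixed.

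The ileum takes up sodium, chloride and water from the digesta and secretes bicarbonate. In the textbook scheme, the sodium pump on the basolateral side of the enterocyte keeps sodium inside the cell low, a sodium/proton exchanger of the SLC9 family and a chloride/bicarbonate exchanger of the SLC26 family work side by side in the brush border, and carriers of the SLC4 and SLC12 families load bicarbonate or chloride from the blood side. Phosphate enters through sodium-coupled carriers of the SLC34 and SLC20 families, and water moves through aquaporins and between the cells.

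The genes that anchor this scheme were only partly measured. The platform annotation lists 13 further genes of the rule whose rows are without values, among them SLC26A3 and SLC26A6, the main brush border anion exchangers, SLC12A2, the basolateral sodium-potassium-chloride cotransporter, and SLC20A1, a phosphate carrier. The levels of these genes were not analysed here. Markers of ileal enterocytes were present: of 12 listed, 7 had a value, with means from 8.15 to 13.23 on the log2 scale, the highest being that of the ileal bile acid binding protein gene FABP6. Array medians ran from 4.98 to 5.07 and correlations between arrays from 0.948 to 0.974. All values below are log2 values of the robust multichip average, for which the level of one probeset cannot be set against that of another, and the number of arrays limits their precision.

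Few of these genes differed between the RFI groups. At an unadjusted p under 0.05 in limma with the sow as a term, 2 of 35 members passed (5.71%), both lower in low RFI pigs, beside 4.03% of all 22136 probesets tested and 2.59% lower in low RFI pigs. No member passed after the adjustment of Benjamini and Hochberg over all probesets, and the smallest adjusted p of a member was 1.0. The median difference of the members, low RFI minus high RFI, was -0.02, against -0.01 over all probesets, with 14 members above and 21 below 0. The median size of the difference was 0.08 on the log2 scale for the members and for all probesets, and the median standard error was 0.12 for both.

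**Figure D1:**
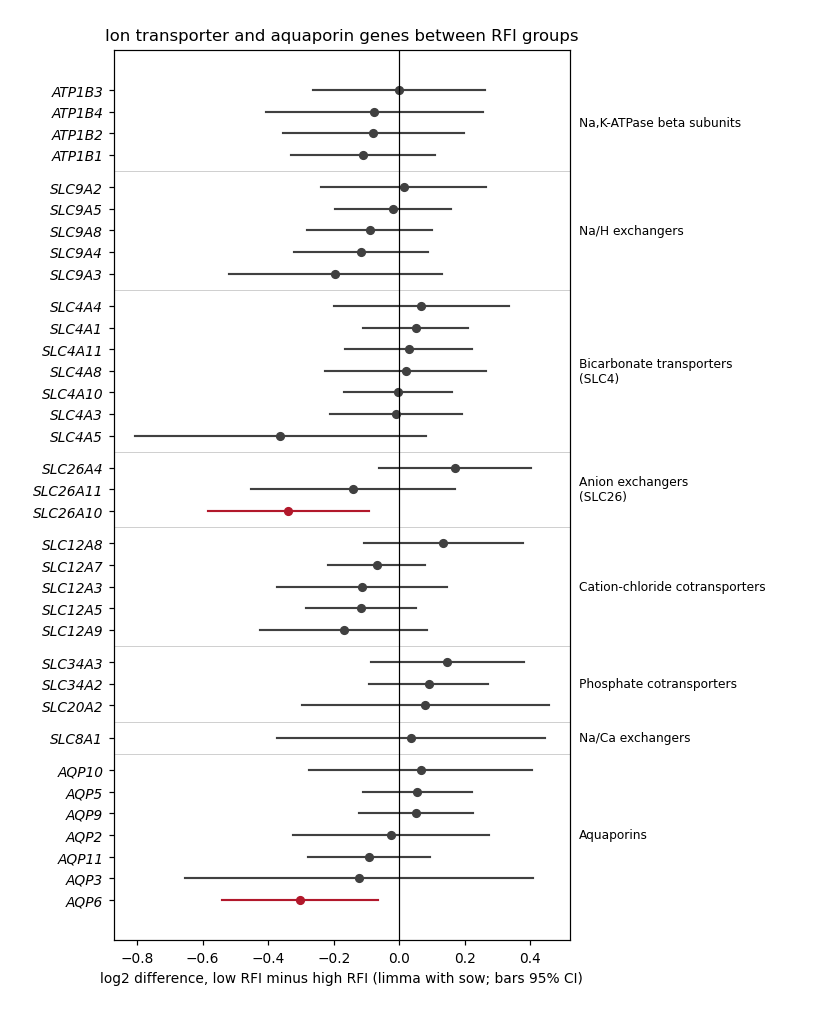
Difference between low and high RFI pigs (x axis, log2 scale, limma with the sow as a term) for the 35 members tested, ordered by family (y axis). Points are estimates, bars are 95% confidence intervals and red marks an unadjusted p under 0.05, which AQP6 (-0.30) and SLC26A10 (-0.34) reached.

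The litter was related to more of the members. A litter difference here may also hold pen and slaughter batch, which cannot be told apart from the litter in these labels. Among the 5 litters, 9 of 35 members had a p under 0.05 (25.7%), beside 12.9% of all probesets tested. None passed after adjustment (adjusted p from 0.242 to 0.384 for the 9), which 0.0949% of all probesets did. The litter took a median of 31.5% of a member's variance, against 23.8% over all probesets, while the RFI group took 2.55% against 2.21%. These are shares of the total sum of squares, not corrected for degrees of freedom. The 5 litters have more of these than the RFI group, so the litter and RFI shares cannot be set against each other.

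**Figure D2:**
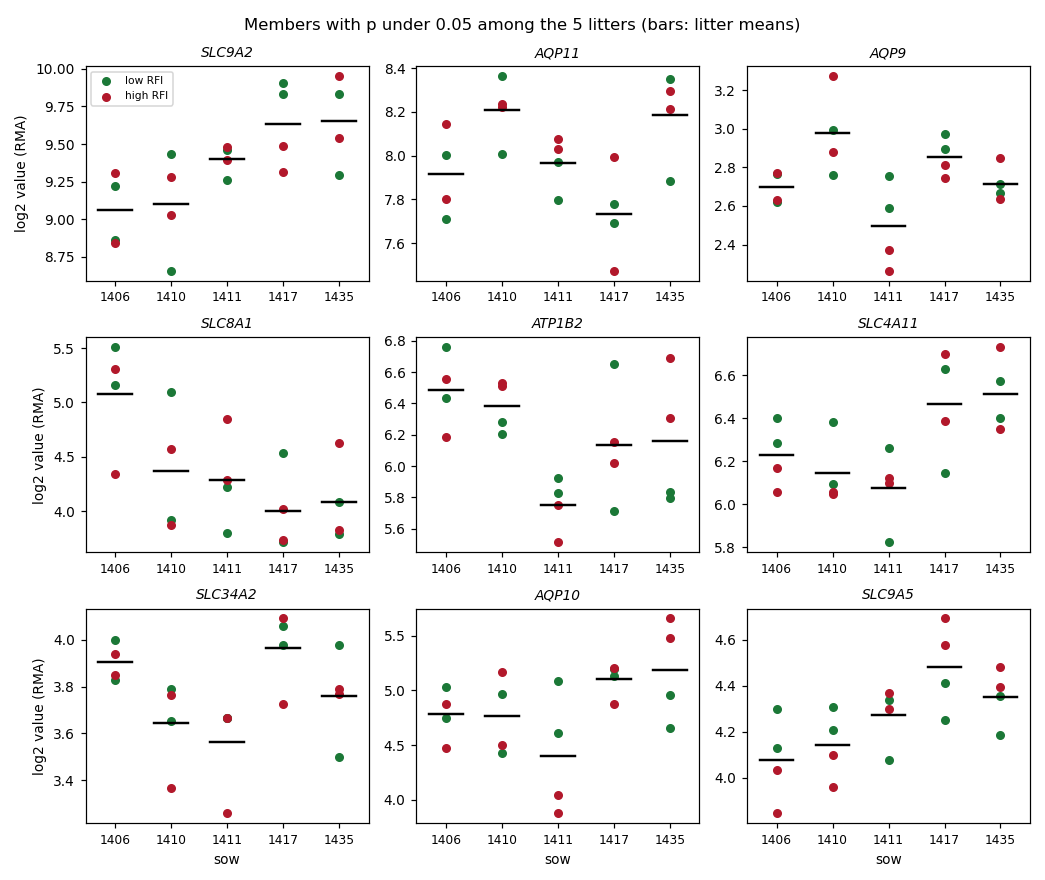
Log2 value of each pig (y axis) by litter (x axis, sow number) for the 9 members with a p under 0.05 among litters. Green points are low and red points high RFI pigs, black bars are litter means, and the points of different litters overlap in most panels.

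Of the sodium/proton exchangers, 5 genes on 9 probesets had values and all were tested. None passed between RFI groups, with differences from -0.19 to 0.01. SLC9A3, which encodes the main exchanger for sodium uptake in the brush border (chromosome 16, 79625555 to 79704084 in Sscrofa11.1), had a lowest value of 7.06, a median of 7.92 and a highest of 8.22 in low RFI pigs. In high RFI pigs these were 7.46, 7.96 and 8.41. The groups overlapped over most of their range, and the difference of -0.19 had a 95% confidence interval from -0.52 to 0.13 (p = 0.223, lower in 6 of 10 pairs). The litter took only 3.99% of the variance of SLC9A3, the smallest share of all members tested.

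SLC9A2, a second epithelial exchanger (chromosome 3, 51535798 to 51623003), behaved differently: its RFI groups were nearly equal and its litters were not. The low RFI pigs had 9.38 ± 0.41 (SD, n = 10) and the high RFI pigs 9.36 ± 0.30 (SD, n = 10), a difference of 0.01 with a 95% confidence interval from -0.24 to 0.26. Litter means were 9.06 for sow 1406, 9.10 for sow 1410, 9.40 for sow 1411, 9.64 for sow 1417 and 9.65 for sow 1435, a span of 0.59 or 1.51-fold. All 4 pigs of sow 1406 (8.84 to 9.31) lay below those of sow 1417 (9.32 to 9.90). SLC9A2 had the smallest p among litters of all members tested (p = 0.0105, adjusted p = 0.242), and the p stayed under 0.05 without any single pig or litter (0.00405 to 0.0368). Its other probeset spanned 7.44 to 8.12 between the same 2 litters as its extremes but did not pass (p = 0.252), and neither did the mean of both probesets.

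Beside SLC9A2 on chromosome 3 lies SLC9A4, an exchanger best known from the stomach (51686001 to 51749996), which had a difference of -0.12 between RFI groups (p = 0.246) and did not pass among litters (p = 0.670). SLC9A5, an exchanger best known from the brain, had litter means from 4.08 for sow 1406 to 4.48 for sow 1417 (p = 0.0482, adjusted p = 0.384). This p was lost in 19 of 25 fits that left out 1 pig or litter. SLC9A8, a further exchanger of the family, had a difference of -0.09 (p = 0.330) on its highest of 3 probesets. Each of the others gave 0.02.

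Of the SLC26 anion exchangers, 5 genes had values and 3 were tested. SLC26A10, a family member whose transport function is not established (chromosome 5, 22881630 to 22889552), was lower in low RFI pigs. Its lowest value, median and highest value were 3.08, 3.93 and 4.42 in low RFI pigs and 3.95, 4.18 and 4.58 in high RFI pigs. The groups overlapped, but 5 low RFI pigs lay below every high RFI pig. Means were 3.89 ± 0.36 and 4.23 ± 0.24 (SD, n = 10 each), a difference of -0.34 with a standard error of 0.12, or 1.26-fold lower (p = 0.00957, with limma's adjusted p at 1.0). It was lower in 7 of 10 pairs. Without the male low RFI pig of sow 1406, at 3.08 far below the next value of 3.74, the difference was -0.26 (p = 0.0202).

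The second SLC26A10 probeset did not show this. There the difference was 0.17 with low RFI pigs above (p = 0.263), and the mean of both probesets differed by -0.09 (p = 0.414). SLC26A10 was also the only member with a p under 0.05 for the interaction of RFI group and sex (1 of 35, beside 6.06% of all probesets). On the highest-mean probeset the male low RFI pig was lower in 5 of 5 pairs, with a mean difference of -0.57, and the female in 2 of 5, with -0.11. The interaction was 0.47 (p = 0.0342, adjusted p = 0.784 from limma) on this probeset and 0.20 (p = 0.50) on the other. It did not pass without the litters of sows 1406, 1410 or 1411 (p = 0.158, 0.166 and 0.0927).

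**Figure D3:**
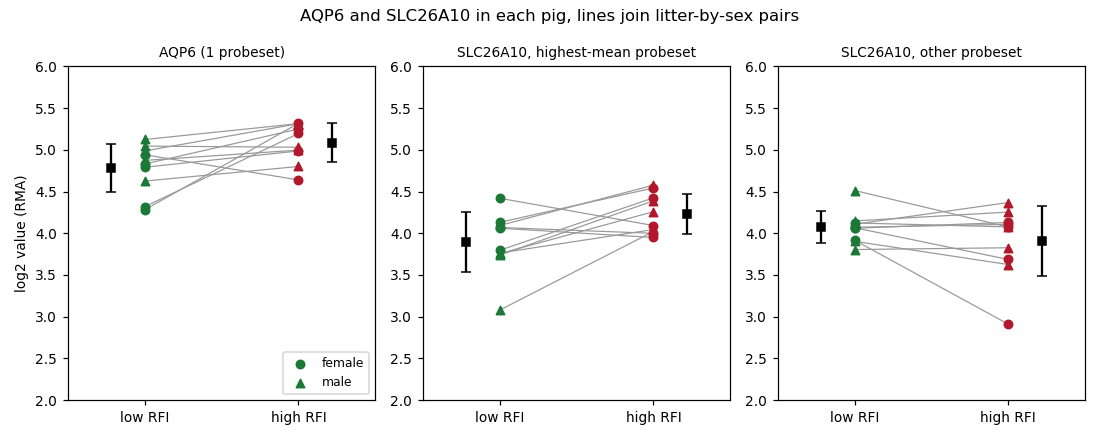
Log2 value of each pig (y axis) in low (green) and high RFI pigs (red) for AQP6 and both SLC26A10 probesets, circles for females and triangles for males. Lines join the 10 litter-by-sex pairs, and squares with bars are mean ± SD (n = 10), which are lower in low RFI pigs for AQP6 (4.78) and the highest-mean SLC26A10 probeset (3.89) but not for the other.

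SLC26A4, pendrin, a chloride/bicarbonate and iodide exchanger, had 2.84 ± 0.33 in low and 2.66 ± 0.24 in high RFI pigs (SD, n = 10 each). This difference of 0.17 did not pass (p = 0.139), nor did its litters (p = 0.0632). SLC26A11, a lysosomal and membrane anion carrier, had -0.14 on its highest probeset (p = 0.357) and 0.01 and 0.10 on the other two.

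Of the SLC4 family, 7 genes had values, all were tested and none passed between RFI groups. SLC4A4, the basolateral sodium bicarbonate cotransporter (chromosome 8, 67768955 to 68177213), had 9.37 ± 0.33 in low and 9.30 ± 0.26 in high RFI pigs (SD, n = 10 each). Lowest, median and highest values were 8.65, 9.41 and 9.89 in low and 8.97, 9.23 and 9.74 in high RFI pigs. The difference of 0.07 had a 95% confidence interval from -0.20 to 0.34 (p = 0.603), and the other 3 probesets of SLC4A4 gave 0.06, 0.12 and 0.01. The widest difference of any member tested was that of SLC4A5, another sodium bicarbonate cotransporter, at -0.36, with a standard error of 0.21 (p = 0.104, lower in 7 of 10 pairs). SLC4A1 (band 3 of the red cell), SLC4A3, SLC4A8, SLC4A10 and SLC4A11 had differences between -0.01 and 0.05.

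SLC4A11, a membrane carrier best known from the corneal endothelium (chromosome 17, 32445360 to 32458246), was the SLC4 member that passed among litters. Its litter means were 6.23 for sow 1406, 6.14 for sow 1410, 6.08 for sow 1411, 6.47 for sow 1417 and 6.51 for sow 1435. Every pig of sow 1435 (6.35 to 6.73) lay above every pig of sow 1411 (5.82 to 6.26), with p = 0.0271 among litters. Of its other probesets, one followed a like order, from 4.45 for sow 1406 to 5.11 for sow 1417 (p = 0.0594), and the other did not pass (p = 0.736). The p was lost in 6 of 25 fits that left out 1 pig or litter, up to 0.0935 without the litter of sow 1435.

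The sodium pump was represented by 4 genes named for its beta subunit, which helps to bring the pump to the membrane. Whether the product of each of the 4 serves the pump in these cells was not analysed here. No gene beginning with ATP1A was among the members, so the alpha subunits of the pump were not analysed here. ATP1B1, the beta subunit of most epithelia (chromosome 4, 81912543 to 81937015), had a lowest value of 9.64, a median of 9.89 and a highest of 10.34 in low RFI pigs and 9.74, 10.09 and 10.59 in high RFI pigs. The groups overlapped, and the difference of -0.11 had a 95% confidence interval from -0.33 to 0.11 (p = 0.300). ATP1B2, ATP1B3 and ATP1B4 had differences of -0.08, -0.002 and -0.08. A lower probeset of ATP1B4 passed among litters (p = 0.00473) while its highest-mean probeset did not (p = 0.111).

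ATP1B2, a subunit best known from glia and neurons (chromosome 12, 52925697 to 52932638), had litter means of 6.48 for sow 1406, 6.38 for sow 1410, 5.75 for sow 1411, 6.13 for sow 1417 and 6.16 for sow 1435. Each pig of sow 1411 (5.51 to 5.93) lay below each pig of sows 1406 and 1410 (6.19 to 6.76 and 6.21 to 6.53). The p among litters was 0.0225 (adjusted p = 0.304), and without the litter of sow 1411 it was 0.315. It also rose past 0.05 without the litter of sow 1406 (0.0570) and without either high RFI pig of sow 1411 (0.0855 and 0.0567).

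The cation-chloride cotransporters gave 5 members, SLC12A3, SLC12A5, SLC12A7, SLC12A8 and SLC12A9, and none passed between RFI groups or among litters. Their differences between RFI groups lay between -0.17 and 0.13, with p from 0.163 to 0.371. SLC12A7, a potassium-chloride cotransporter of many epithelia, varied little, with 8.55 ± 0.14 in low and 8.62 ± 0.05 in high RFI pigs (SD, n = 10 each). SLC12A9, a relative of these carriers, had the smallest p among litters in this family (p = 0.0728).

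The phosphate carriers gave 3 members, and none passed between RFI groups. SLC34A2, the sodium phosphate cotransporter of the intestinal brush border (chromosome 8, 19481127 to 19507903), had 3.81 ± 0.19 in low and 3.72 ± 0.25 in high RFI pigs (SD, n = 10 each). The difference of 0.09 had a 95% confidence interval from -0.09 to 0.27 (p = 0.313), whereas the other probesets gave -0.33 (p = 0.0645) and -0.02 (p = 0.896). Litter means of SLC34A2 were 3.90, 3.64, 3.56, 3.96 and 3.76 for sows 1406, 1410, 1411, 1417 and 1435 (p = 0.0434). That p was lost in 17 of 25 fits that left out 1 pig or litter, and was 0.0997 without 1 male high RFI pig of sow 1411. SLC20A2, a phosphate carrier of most tissues, and SLC34A3, a carrier best known from the kidney, had 0.08 (p = 0.663) and 0.15 (p = 0.206).

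SLC8A1, a sodium/calcium exchanger best known from heart muscle (chromosome 3, 99823503 to 100257306), did not differ between RFI groups beyond its error (0.04, standard error 0.20). Its litter means fell apart into sow 1406 at 5.08 and the others at 4.37, 4.29, 4.0 and 4.08 for sows 1410, 1411, 1417 and 1435, a span of 1.08 or 2.11-fold. In the litter of sow 1406 the values were 5.16 and 5.51 for low and 5.31 and 4.34 for high RFI pigs, so that 3 of its 4 pigs lay above every other pig. The p among litters was 0.0199 on this probeset, and of the other 4 probesets one passed (p = 0.00473, 3.73 for sow 1406 and 2.60 for sow 1435) and the rest did not (p = 0.221, 0.497 and 0.387). All 5 probesets had a higher mean for sow 1406 than for sow 1435. Without the litter of sow 1406 the p of SLC8A1 was 0.583, and without any 1 of its 3 high pigs it was between 0.0592 and 0.0979.

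The aquaporins gave 11 members, of which 7 were tested. AQP6, a channel known from intracellular vesicles of the kidney (chromosome 5, 15888080 to 15892113), was lower in low RFI pigs. Lowest, median and highest values were 4.28, 4.85 and 5.12 in low RFI pigs and 4.64, 5.11 and 5.32 in high RFI pigs, so that the groups overlapped. Means were 4.78 ± 0.29 and 5.08 ± 0.24 (SD, n = 10 each), a difference of -0.30 with a standard error of 0.11, or 1.23-fold lower (p = 0.0154, with limma's adjusted p at 1.0). The low RFI pig was lower in 8 of 10 pairs, and both exceptions were in the litter of sow 1411 (4.94 against 4.64 in females, 5.04 against 5.03 in males). The pairs furthest apart were the females of sow 1410 (4.28 against 5.32) and of sow 1406 (4.32 against 5.20). Without the litter of sow 1406 the difference was -0.25 (p = 0.0591), and without that of sow 1410 it was -0.23 (p = 0.0761).

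AQP6 stands in a row of aquaporin genes on chromosome 5, after AQP2, the vasopressin-regulated channel of the kidney (15862739 to 15868565), and AQP5, a channel of glands (15876527 to 15879608). The neighbours did not pass between RFI groups: AQP2 had -0.02 (p = 0.866) and AQP5 0.06 (p = 0.494). AQP3, a water and glycerol channel of the basolateral membrane (chromosome 10, 33045374 to 33050285), had 7.75 ± 0.81 in low and 7.87 ± 0.43 in high RFI pigs (SD, n = 10 each), a difference of -0.12 with a wide 95% confidence interval from -0.65 to 0.41.

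Among litters, 3 aquaporins passed. AQP11, a channel of the endoplasmic reticulum (chromosome 9, 12065550 to 12076339), had litter means of 7.91, 8.21, 7.97, 7.73 and 8.19 for sows 1406, 1410, 1411, 1417 and 1435 (p = 0.0173). All pigs of sow 1410 (8.01 to 8.36) lay above all pigs of sow 1417 (7.47 to 7.99), and the p was 0.111 without the litter of sow 1417. AQP9, a channel for water and small solutes of liver and white blood cells, had litter means of 2.70, 2.98, 2.49, 2.86 and 2.72 in the same order (p = 0.0186), and p = 0.133 without the litter of sow 1411. Single values of AQP9 ran from 2.26 to 3.27. AQP10, a channel of the human small intestine, had litter means of 4.78, 4.77, 4.40, 5.10 and 5.19 (p = 0.0472), and this p was lost in 15 of 25 fits that left out 1 pig or litter. The second AQP10 probeset did not pass (p = 0.860).

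The filter left out 6 members because their SD was above its limit in at least 1 RFI group, among them the aquaporins AQP1, AQP4, AQP7 and AQP8 and the anion exchangers SLC26A5 and SLC26A7. They were fitted without the filter, where 12.5% of all 25092 probesets had a p under 0.05 among litters. None of the 6 passed between RFI groups (p from 0.161 to 0.998). Both AQP1 and AQP7 had a p under 0.05 among litters.

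AQP1, the water channel of red cells and of vessel walls (chromosome 18, 42063482 to 42076741), had the widest litter differences of all members. Litter means were 7.26 for sow 1406, 6.64 for sow 1410, 5.90 for sow 1411, 5.74 for sow 1417 and 5.40 for sow 1435, a span of 1.85 or 3.61-fold. The pigs of sow 1406 had 6.56 to 7.85 and those of sow 1435 had 5.18 to 5.76, with no overlap. The p among litters was 0.000947 (adjusted p = 0.124 from limma without the filter), and the litter took 65.4% of the variance. RFI groups were alike in mean, at 6.19 ± 0.97 and 6.19 ± 0.76 (SD, n = 10 each).

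AQP7, a glycerol channel (chromosome 10, 33098746 to 33130245), had litter means of 8.76, 7.80, 8.73, 8.41 and 9.12 for sows 1406, 1410, 1411, 1417 and 1435 (p = 0.0303). In the litter of sow 1410 the values ran from 6.83 to 8.68, and in that of sow 1411 from 8.68 to 8.76, so the litters also differed in spread. AQP8, a water channel of enterocytes, ran from 6.19 to 9.29 in low and from 7.60 to 9.28 in high RFI pigs, with means of 8.19 ± 1.0 and 8.36 ± 0.69 (SD, n = 10 each). Its difference of -0.17 did not pass (p = 0.641), and its litters did not either (p = 0.413).

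AQP4, a channel of glia, and SLC26A7, an anion exchanger known from stomach and kidney, each had 1 pig far above the others. On its highest-mean probeset AQP4 was 7.62 in the female high RFI pig of sow 1435 and between 0.95 and 3.95 in the other 19 pigs. The second AQP4 probeset, left out for its low mean, did not show this. It ran from 1.39 to 1.69 in that litter and reached 3.08 at most over all pigs. SLC26A7 was 4.82 in the male high RFI pig of sow 1417 and between 0.75 and 2.86 in the others. SLC26A5, prestin, the motor protein of the inner ear, was spread more evenly, from 1.88 to 5.32 in low and from 2.41 to 4.28 in high RFI pigs.

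**Figure D4:**
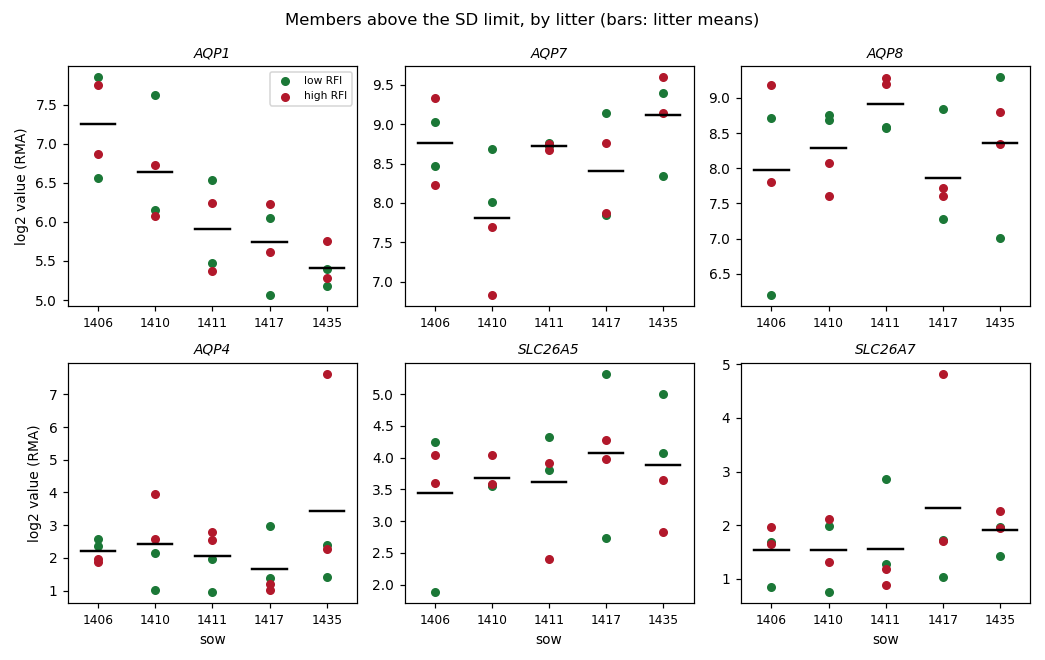
Log2 value of each pig (y axis) by litter (x axis, sow number) for the 6 members above the SD limit of the filter. Green points are low and red points high RFI pigs, black bars are litter means, and AQP1 runs from 7.26 for sow 1406 to 5.40 for sow 1435.

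Between the sexes, 3 of 35 members had a p under 0.05, beside 7.43% of all probesets, and none passed after adjustment. AQP2 was lower in females, at 4.19 ± 0.27 against 4.53 ± 0.24 in males (SD, n = 10 each), a difference of -0.33 (p = 0.0144). ATP1B1 was lower in females as well, at 9.89 ± 0.19 against 10.13 ± 0.26 (-0.24, p = 0.0183). SLC12A9 was higher in females, at 7.20 ± 0.24 against 6.92 ± 0.34 (0.28, p = 0.0140), whereas its second probeset did not pass (p = 0.572). Each of the 3 was lost without the litter of sow 1417 (p = 0.0658, 0.116 and 0.0515), AQP2 also without that of sow 1410 (p = 0.0574) and ATP1B1 without that of sow 1406 (p = 0.0524).

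A list of 52 genes that work with these carriers, among them chloride and potassium channels, carbonic anhydrases, scaffolds, hormone receptors and kinases, had values for 31, of which 29 were tested. The chloride channel gene CFTR was among those without values. Between RFI groups 1 of 29 passed (3.45%), beside 4.03% of all probesets, and none after adjustment. This was FXYD3, a small modulator of the sodium pump, at -0.17 with a standard error of 0.08 (p = 0.0492, lower in 7 of 10 pairs). The median difference of the list was -0.02. Among litters 10 of 29 passed (34.5%) beside the 12.9% over all probesets, and none after adjustment.

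Several of these partners regulate sodium uptake. The carbonic anhydrase gene CA7 had litter means of 9.22, 8.58, 9.41, 9.75 and 9.59 for sows 1406, 1410, 1411, 1417 and 1435 (adjusted p = 0.0759 from limma). The guanylin gene GUCA2A, whose product curbs sodium uptake through guanylate cyclase C, had 10.58, 9.97, 10.82, 11.04 and 10.76 (adjusted p = 0.128), and both were lowest in the litter of sow 1410. The mineralocorticoid receptor gene NR3C2 had 8.04, 8.28, 8.36, 8.80 and 8.49 (adjusted p = 0.173). The ubiquitin ligase gene NEDD4L ran from 5.62 to 6.36 and PRKG2, a kinase downstream of guanylate cyclase C, from 8.76 to 9.53 (adjusted p = 0.256 and 0.260). For NR3C2, NEDD4L and PRKG2 the litter of sow 1406 was lowest, as for SLC9A2. Of the other partners that passed among litters, GUCY2C and PDZK1 were also lowest there, while CLCA1 was highest there. BEST4 and KCNMA1 were lowest in the litter of sow 1410.

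Means of marker lists for other cells in the scraped mucosa also varied among these litters. In the counts below, passing is an unadjusted p under 0.05 among litters in limma, which 12.9% of all probesets tested reached. No marker tested passed after adjustment. Of 6 fibroblast markers all had values, 5 were left out by the SD filter and the mean over the 6 was 7.36 in the litter of sow 1406 (6.55 to 7.70), 6.40, 6.22 and 5.40 in those of sows 1410, 1411 and 1417, and 5.38 in that of sow 1435 (4.67 to 6.39). Of 6 endothelial markers 5 had values and 3 passed among litters. The mean over the 5 was 5.99 for sow 1406 (5.75 to 6.25) and between 5.50 and 5.66 for the others. CLDN5 alone was not highest for sow 1406, at 6.23 against 6.38 and 6.35 for sows 1417 and 1435. The mean of 5 smooth muscle markers was 6.09 for sow 1406 and between 5.37 and 5.60 for the others, and 1 of the 4 tested passed. Of these markers, TAGLN (7.77) and DES (6.89) were highest for sow 1406, while ACTA2, MYH11 and MYLK were not. Of 4 macrophage markers 2 had values and both passed, with a mean of 5.86 for sow 1406 and between 5.22 and 5.48 for the others. The mean of 4 crypt and cycling markers was 5.41 for sow 1406 and 4.49 for sow 1435, and neither of the 2 tested passed. Most of this gap lay in OLFM4, which the filter left out, at 8.77 and 5.66 in these litters. TOP2A was at 5.52 and 5.06 and LGR5 at 1.63 and 1.46, while ASCL2 went the other way (5.74 and 5.79). The mean of the 7 ileal enterocyte markers was lowest for sow 1406, with pigs from 10.70 to 11.38, and highest for sow 1435 at 11.47 (11.27 to 11.57), but its members did not move together. FABP2, which the SD filter left out, went from 7.97 for sow 1406 to 9.59 for sow 1435, and APOA4, also left out, from 8.12 to 8.88. FABP6 was at 13.29 and 13.25 and VIL1 at 12.12 and 12.18 in these litters, and of the 5 tested MEP1A alone passed. The lowest mean of a marker in these 6 lists was that of LGR5, at 1.61, under the filter's mean limit of 1.75. The remaining lists were mostly not at an extreme for sow 1406. Goblet markers were highest for sow 1417 (10.12) and lowest for sow 1410 (9.65). T cell markers were highest for sow 1435 (8.69) and lowest for sow 1410 (8.49). Red cell markers were highest for sow 1411 (4.93, with 4.80 for sow 1406). Neuron and glia markers were highest for sow 1410 (4.38) and lowest for sow 1411 (4.06). B cell markers were highest for sow 1406, at 7.222 against 7.216 for sow 1411. AQP1 and SLC8A1 were highest and SLC9A2 lowest in the litter of sow 1406, and the part of cell composition in these litter differences was not tested. In such tissue, fewer cells of a type and less RNA per cell cannot be told apart. Between RFI groups the list means were 6.21 in low and 6.10 in high RFI pigs for fibroblasts, 5.62 and 5.70 for endothelium, 5.59 and 5.62 for smooth muscle and 11.26 and 11.24 for enterocytes. Of single markers, COL1A1, the one fibroblast marker tested, was higher in low RFI pigs (0.39, p = 0.0166), and ACTA2 of smooth muscle was lower (-0.62, p = 0.0254). The part of these markers in the differences of AQP6 and SLC26A10 was not tested.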

How the data were processed

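Snowball arrays, 1 for each pig, measured the ileum mucosa of 10 low RFI and 10 high RFI animals. According to the methods of the study, the authors mapped the probes to Sscrofa11.1 and took the robust multichip average with affy. The submitters' processing notes give GCOS 1.1.1. The authors deposited log2 values, which 25092 of 47845 rows hold. The labels and the methods name different RNA extraction and labelling kits. Genes were named from the platform annotation, and positions are those of the RefSeq genes on Sscrofa11.1 (the place of a probeset within its gene was not analysed here).

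The study's filter was read as dropping any probeset whose mean lay below the 5% quantile, or whose SD lay above the 95% quantile of either RFI group, which left 22136. With R 4.3.3 and limma 3.58.1, lmFit and eBayes were run with RFI group and sow (14 residual and 4.42 prior degrees of freedom). Litters were compared by the sow terms of that fit, and sex and the interaction with RFI group were fitted beside the sow. Adjusted p-values follow Benjamini and Hochberg across the whole table tested. The study's slaughter batch is missing from the labels used here and was left out, so the sow terms may include batch. Scripts were tested on simulated data, and figures were drawn with matplotlib 3.10.9 under Python 3.11.15.

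The litter-by-sex pairs come from the labels and the study's selection within litter and sex. The median correlation within pairs, of deviations from group means, was 0.0836 (over 0.1 in 4 of 10), and beside the sow the consensus correlation of a pair was -0.00195.

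Members named with values are those with a p under 0.05 between RFI groups, the 10 of smallest p among litters, up to 4 each for sex and interaction, a set of textbook carriers whatever their p, the members left out by the filter, and up to 6 partner genes. Members outside this rule, such as SLC4A5, were named after their values were seen. The members and lists were chosen with earlier results of these data known. Correlations of 4 pairs of carriers across pigs were planned and not run, because 1 gene of each pair has no value. Alternatives were other terms for the litter, no or a partial filter, renewed normalization or centring, eBayes with trend or robust, averaging a gene's probesets, and fits without each pig or litter.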

Additional observations from a re-analysis of the deposited data

Results flagged for a closer look

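The samples of each group were searched for single pigs far from the others. The 4 pigs of each litter were searched likewise, but for 10 members alone. Of these 132 sets of values 7 were picked out, and chance alone picks out about 1 in 20. On its highest-mean probeset AQP4 was 7.62 in the female high RFI pig of sow 1435, with 3.95 as the next value. Without this pig the AQP4 difference between RFI groups went from -0.86 to -0.33 (p = 0.370, without the filter). The second AQP4 probeset ran only from 1.39 to 1.69 in that litter. SLC26A7 was 4.82 in the male high RFI pig of sow 1417, with 2.27 next, and the difference went from -0.43 to -0.10 (p = 0.697, without the filter). SLC20A2 was 9.21 in the female high RFI pig of sow 1406, with 8.38 next, and the difference went from 0.08 to 0.19 (p = 0.248). SLC12A8 was 5.68 in the male low RFI pig of sow 1410, with 6.08 next, and the difference went from 0.13 to 0.19 (p = 0.0951). SLC26A10 was 3.08 in the male low RFI pig of sow 1406, with 3.74 next, and the difference went from -0.34 to -0.26 (p = 0.0202).

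Within litters, SLC4A11 was 6.38 in the male low RFI pig of sow 1410, with 6.09 next, and without it the p among litters was 0.0173 in place of 0.0271. SLC34A2 was 3.26 in the male high RFI pig of sow 1411, with 3.67 next, and without it the p among litters was 0.0997 in place of 0.0434. The fits without these pigs were added after the data were seen.

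The difference between RFI groups was further from 0 in males than in females for SLC26A10, with an interaction of 0.465 on the log2 scale (p = 0.0342, adjusted p = 0.784 from limma).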

How the results depend on the processing

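The 2 calls between RFI groups, AQP6 and SLC26A10, were made under all alternatives except averaged probesets per gene, which left 1 (AQP6), and some fits without a pig or litter, which gave 1 to 3. With the litter-by-sex pair as a replicate block the same 2 were called, and the block changed no other call. The 9 calls among litters became 5 with averaged probesets, 7 to 10 under the other settings and 4 to 9 when a pig or litter was left out. SLC9A2 lost its call with the mean of its probesets alone. The 3 calls between sexes became 0 to 4, and the 1 interaction call 0 to 3, when a litter was left out. With averaged probesets the interaction call was SLC4A8 in place of SLC26A10. Of the differences between RFI groups, that of SLC34A2 turned to -0.085 with the mean of its probesets (p = 0.289), that of SLC9A2 ran from -0.10 to 0.078 and that of SLC4A4 from -0.043 to 0.14 over the fits without a pig or litter. The cause of these changes was not tested. No setting gave a member an adjusted p under 0.05 (smallest 0.971 between RFI groups, 0.121 among litters). Where a litter was left out, fewer pigs were fitted. The median difference of all probesets was -0.00675 as deposited, -0.00245 with renewed normalization and 0.00709 with each array centred on its median.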
